A study of Arabidopsis thaliana with 12 samples.

Results

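The 6 genes described here, AT5G46890, AT5G46900, AT4G12510, AT4G12520, AT4G12545 (AIR1B) and AT4G12550 (AIR1), are Arabidopsis thaliana genes of the lipid-transfer-like kind, 6 of 32833 genes in the deposited table. They were taken by gene identifier. AT5G46900 and AT5G46890 were picked because they had the lowest log2 changes of all genes tested in isoxaben against DMSO, -4.05 and -3.39, and the other 4 are related genes of the AIR1 cluster on chromosome 4. Just outside that choice lay AT4G26320 (AGP13, an arabinogalactan protein gene), with a log2 change of -2.35 and levels of 2.28 ± 1.25 FPKM with isoxaben and 14.96 ± 2.23 FPKM with DMSO (SD, n = 3 each). All 6 genes passed the filter on low values, a 12-library mean of 0.5 FPKM or more.

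Proteins of this family are small and start with a signal for secretion. They carry the 8-cysteine motif, a pattern of cysteines joined by disulphide bridges that folds around a hydrophobic cavity, as in the nonspecific lipid transfer proteins, which bind lipids in the cell wall and the cuticle. In the hybrid proline-rich members a proline-rich stretch precedes this motif, and the family includes EARLI1 and AZI1, known from cold responses and systemic immunity. AIR1 was named as a gene induced by auxin in root cultures, at the time when lateral roots form.

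The seedlings were of the wild-type accession Col-0, grown for 10 days in liquid half-strength MS medium, and whole seedlings were taken 6 h after treatment. The 4 groups were 600 nM isoxaben together with 10 nM PEP3, 600 nM isoxaben alone, 10 nM PEP3 alone, and a DMSO mock, and all seedlings received the same amount of DMSO. Isoxaben is a herbicide that blocks cellulose synthesis, and PEP3, a danger signal of the plant elicitor peptide group, is sensed by PEPR1 and PEPR2, both receptor kinases. Each group had 3 libraries of poly(A) RNA, described by the submitters as biological replicates.

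Levels are given in FPKM, fragments scaled to gene length and library depth, as deposited. The 12 libraries held between 16995775 and 22793764 fragments assigned to genes, recovered from the FPKM values, and libraries of 1 group correlated at 0.986 to 0.991 on the log2 scale. A gene was called where limma, fitted on log2(FPKM + 1) over all 12 libraries and 20248 genes, gave an adjusted p (Benjamini-Hochberg) under 0.05. The median log2 change of all genes tested lay between -0.01 and 0.01 in each comparison. In whole seedlings, fewer cells of a type and less RNA per cell cannot be told apart.

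The 6 genes form 3 close pairs. AT5G46890 (positions 19036296 to 19036938) and AT5G46900 (19039701 to 19040456) lie beside each other on the minus strand of chromosome 5, in TAIR10 coordinates. AT4G12510 (7417068 to 7417873) and AT4G12520 (7420951 to 7421828) lie on the minus strand of chromosome 4. AIR1B (7434199 to 7434858) and AIR1 (7439115 to 7439805) follow on its plus strand. Each gene consists of 1 exon in the RefSeq annotation. The proteins of the chromosome 5 pair had 127 residues with 9 cysteines each, those of AT4G12510 and AT4G12520 had 129 residues with 10 cysteines each, AIR1B had 108 residues with 9 cysteines and AIR1 had 111 residues with 8. Coding sequences within a pair were 97.4% identical for AT5G46890 and AT5G46900 (10 differences over 384 aligned bases), 99.5% for AT4G12510 and AT4G12520 (2 differences over 390, with identical proteins) and 95.7% for AIR1B and AIR1 (14 differences over 327). Between pairs the identity was 67.6% to 70.7%.

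The last 90 coding bases with the stop codon are shown for each gene, as 1 stretch in which the members of a pair differ little. They are from RefSeq (TAIR10.1), 5′ to 3′ on the strand of the gene, and capitals mark the bases that differ from the other member of the pair. The stretches lie at chr5:19039954-19040043 and chr5:19036437-19036526 (minus strand), at chr4:7421279-7421368 and chr4:7417414-7417503 (minus strand), and at chr4:7439422-7439511 and chr4:7434497-7434586 (plus strand), in the order shown.
AT5G46900: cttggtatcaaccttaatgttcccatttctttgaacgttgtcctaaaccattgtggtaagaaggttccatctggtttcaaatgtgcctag
AT5G46890: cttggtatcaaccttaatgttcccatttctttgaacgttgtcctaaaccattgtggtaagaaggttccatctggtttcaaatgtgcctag
AT4G12520: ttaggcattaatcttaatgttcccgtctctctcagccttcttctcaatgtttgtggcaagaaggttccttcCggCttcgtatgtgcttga
AT4G12510: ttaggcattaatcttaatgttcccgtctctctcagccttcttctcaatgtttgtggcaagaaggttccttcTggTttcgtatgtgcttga
AIR1: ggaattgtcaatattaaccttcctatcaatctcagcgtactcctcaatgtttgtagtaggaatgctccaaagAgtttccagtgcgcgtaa
AIR1B: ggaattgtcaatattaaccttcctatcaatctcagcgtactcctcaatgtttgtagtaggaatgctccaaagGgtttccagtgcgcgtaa
The chromosome 5 pair had 0 differences in this stretch, AT4G12520 and AT4G12510 had 2, and AIR1 and AIR1B had 1. Whole genes differed more than coding sequences. In the best local alignment, AT5G46890 and AT5G46900 were 94.5% identical over 526 bases. AT4G12510 and AT4G12520 were 93.3% identical over 660 bases, and AIR1B and AIR1 were 89.4% identical over 671. The counting of fragments that match both genes was not given in the sources used here. Each pair is therefore also reported with its fragments summed. For the same reason, calls of both members of a pair may not be independent.

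The 250 bases before the gene start are shown for both genes of the chromosome 5 pair and for AIR1 and AIR1B, whose levels moved in different ways. Capitals mark TTGAC, the core of the W-box bound by WRKY factors, or its reverse complement GTCAA. The windows are chr5:19040457-19040706 for AT5G46900 and chr5:19036939-19037188 for AT5G46890 (minus strand), and chr4:7438865-7439114 for AIR1 and chr4:7433949-7434198 for AIR1B (plus strand), all from RefSeq (TAIR10.1).
AT5G46900: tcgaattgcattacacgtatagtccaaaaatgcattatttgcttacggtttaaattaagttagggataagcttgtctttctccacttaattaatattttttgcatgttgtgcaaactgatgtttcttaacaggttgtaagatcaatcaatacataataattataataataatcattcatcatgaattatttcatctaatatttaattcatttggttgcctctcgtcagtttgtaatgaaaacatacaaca
AT5G46890: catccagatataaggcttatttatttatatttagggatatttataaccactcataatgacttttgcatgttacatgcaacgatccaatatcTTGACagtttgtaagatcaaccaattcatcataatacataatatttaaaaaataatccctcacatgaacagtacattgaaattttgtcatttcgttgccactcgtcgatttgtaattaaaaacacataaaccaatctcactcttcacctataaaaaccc
AIR1: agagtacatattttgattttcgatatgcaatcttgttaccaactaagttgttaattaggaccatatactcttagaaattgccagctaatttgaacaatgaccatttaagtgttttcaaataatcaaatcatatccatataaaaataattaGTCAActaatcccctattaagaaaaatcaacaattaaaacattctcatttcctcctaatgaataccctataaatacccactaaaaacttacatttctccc
AIR1B: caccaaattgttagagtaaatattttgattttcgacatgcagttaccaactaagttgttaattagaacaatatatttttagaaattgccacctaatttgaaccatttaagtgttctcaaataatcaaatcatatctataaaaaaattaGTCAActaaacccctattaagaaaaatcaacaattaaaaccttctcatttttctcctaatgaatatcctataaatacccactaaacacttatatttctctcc
These windows were 80.2% identical over 207 aligned bases within the chromosome 5 pair and 94.1% over 236 within AIR1 and AIR1B. TTGAC, searched on both strands, stood once each before AT5G46890, AIR1B and AIR1, 3 of the 6 genes, against 44.9% of 27443 protein-coding genes with a window of the same length. TGTCTC, the auxin response element, and CACGTG, the G-box, stood before 0 of the 6, against 10.9% and 6.49% of all windows. The windows were read as letters, and binding was not measured.

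AT5G46900 was nearly silent wherever isoxaben had been given, and it stood between these groups and DMSO with the peptide alone. It stood at 0.226, 0.252 and 0.145 FPKM with both treatments, at 0.271, 0.295 and 0 FPKM with isoxaben, at 5.06, 3.72 and 3.17 FPKM with PEP3, and at 19.3, 18.5 and 17.9 FPKM with DMSO. The isoxaben groups overlapped each other, all their libraries lay below every PEP3 library, and every PEP3 library lay below every DMSO library. Over 3 libraries these levels rested on 9 fragments with both treatments (exact Poisson 95% interval 4.12 to 17.1, counting error only), 9 with isoxaben (4.12 to 17.1), 161 with PEP3 (137 to 188) and 816 with DMSO (761 to 874). The isoxaben mean was 1.02% of the DMSO mean, the difference by which the gene was chosen, and it is given with no test.

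The comparison of both treatments with PEP3 asks what isoxaben did in the presence of the peptide. Its difference of means shares no library with isoxaben against DMSO. Its SE and adjusted p still use the spread over all 12 libraries, those of isoxaben and DMSO included. Fitted on the compared libraries alone, limma gave adjusted p = 9.65e-05 for AT5G46900 and 0.000706 for AT5G46890. AT5G46900 averaged 0.207 ± 0.0558 FPKM with both treatments and 3.98 ± 0.971 FPKM with PEP3 (SD, n = 3 each), 19.2-fold lower. On the log2(FPKM + 1) scale it fell by 2.03 (SE 0.144, limma adjusted p = 1.81e-06), the lowest change of the 20248 genes tested. That scale understates the change of a gene near 0: with a pseudocount of 0.1 the log2 change was -3.72, and with voom on the recovered fragments it was -4.04 (adjusted p over all alternatives 1.05e-06 to 0.000141).

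AT5G46890, its neighbour, kept a low level under isoxaben. It stood at 1.15, 2.07 and 0.936 FPKM with both treatments, at 1.75, 2.01 and 1.62 FPKM with isoxaben, at 10.12, 6.60 and 6.14 FPKM with PEP3, and at 29.3, 35.2 and 21.8 FPKM with DMSO. The order of the groups was that of AT5G46900, with the isoxaben groups again overlapping. It averaged 1.39 ± 0.604 FPKM with both treatments and 7.62 ± 2.18 FPKM with PEP3 (SD, n = 3 each), 5.50-fold lower, a log2 change of -1.85 (SE 0.206 and limma adjusted p = 6.59e-05) and the fourth lowest of all genes tested. With the fragments of the pair summed, the log2 change was -1.92 (SE 0.168, limma adjusted p = 1.03e-05).

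**Figure D1:**
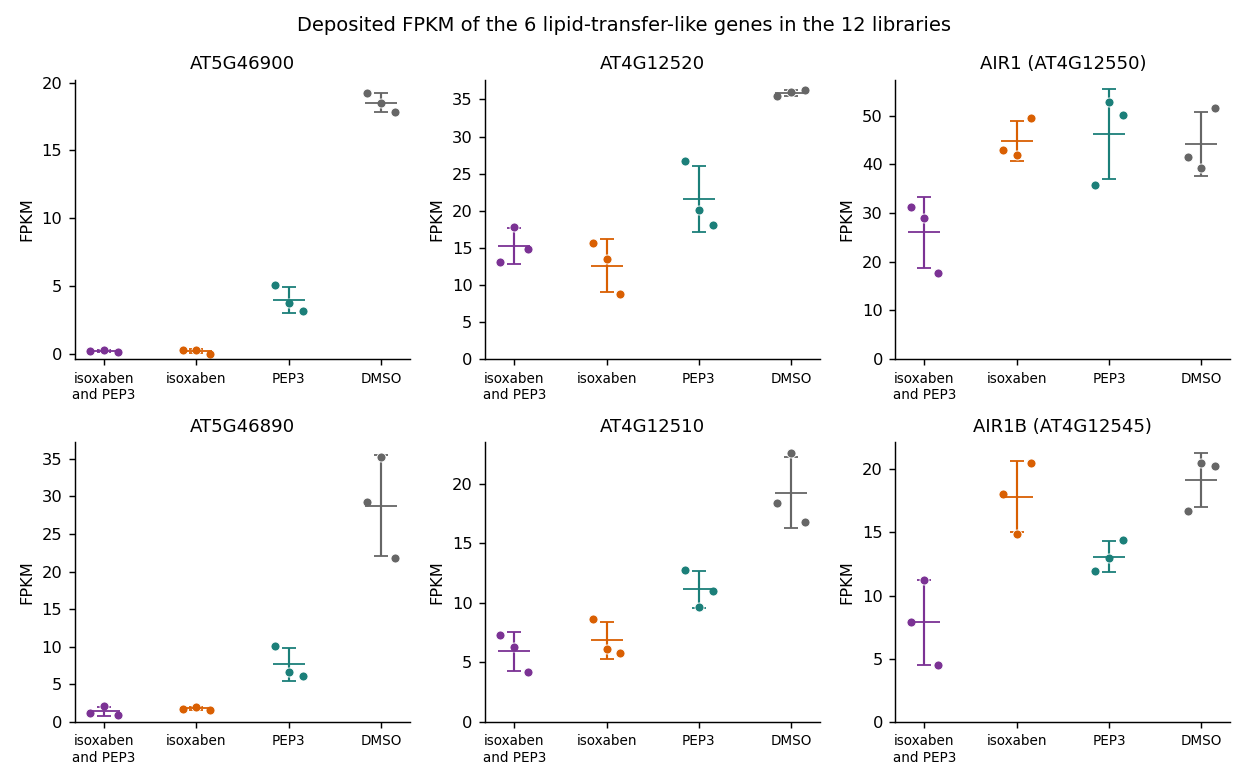
FPKM of the 6 genes in the 12 libraries (one panel a gene, points are libraries, bars the mean with the SD, n = 3 a group). AT5G46900 and AT5G46890 lie near 0 in both isoxaben groups, AT4G12510 and AT4G12520 keep 30.7% to 42.4% of their DMSO mean there, and AIR1 is lower only in the group with both treatments.

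With PEP3 alone, AT4G12510 and AT4G12520 fell, and the levels of the chromosome 5 pair were lower in every library than with DMSO. This comparison uses the DMSO libraries by which the chromosome 5 pair was chosen, so the values of the pair are given with no test. AT5G46900 averaged 3.98 ± 0.971 FPKM with PEP3 and 18.5 ± 0.701 FPKM with DMSO (SD, n = 3 each), 4.65-fold lower, with a log2 change of -1.99 (SE 0.144). AT5G46890 averaged 7.62 ± 2.18 FPKM with PEP3 and 28.8 ± 6.69 FPKM with DMSO, 3.78-fold lower, with a log2 change of -1.79 (SE 0.206). Of the 4 AIR1-cluster genes, 2 were called lower, AT4G12510 and AT4G12520, where 6.45% of all genes tested were. These 2 are 1 close pair and may not count as 2 independent results. Of the 4, 3 had PEP3 libraries that all lay below DMSO, where 15.4% of all genes tested did.

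Both treatments against isoxaben uses the isoxaben libraries by which the pair was chosen, and is also given for the pair with no test. AT5G46900 differed by 0.03 on the log2 scale (SE 0.144) and AT5G46890 by -0.26 (SE 0.206). With 9 fragments in each of these groups, a further fall of AT5G46900 was not detectable at this depth. The sign of the AT5G46900 value turned without isoxaben replicate 3, the library listed at 0, to -0.09. The interaction, which is the log2 change with PEP3 in the presence of isoxaben minus that with PEP3 alone, was 2.02 for AT5G46900 and 1.54 for AT5G46890. It contains the contrast by which they were chosen and is given with no test.

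AT4G12510 and AT4G12520 followed the same order of groups with smaller differences. AT4G12510 stood at 7.27, 6.32 and 4.14 FPKM with both treatments, at 8.64, 6.15 and 5.76 FPKM with isoxaben, at 12.7, 9.68 and 11.0 FPKM with PEP3, and at 18.4, 22.6 and 16.8 FPKM with DMSO. AT4G12520 stood at 13.1, 17.8 and 14.8 FPKM with both treatments, at 15.6, 13.4 and 8.72 FPKM with isoxaben, at 26.7, 20.1 and 18.1 FPKM with PEP3, and at 35.5, 36.0 and 36.2 FPKM with DMSO. In each gene both isoxaben groups overlapped, and the PEP3 libraries lay between them and the DMSO libraries.

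AT4G12510 averaged 5.91 ± 1.60 FPKM with both treatments and 11.1 ± 1.54 FPKM with PEP3 (SD, n = 3 each), and it fell by 0.83 on the log2 scale (SE 0.179, limma adjusted p = 0.0105). AT4G12520 averaged 15.2 ± 2.37 FPKM with both treatments and 21.6 ± 4.49 FPKM with PEP3, with a log2 change of -0.47 (95% interval -0.85 to -0.09, limma adjusted p = 0.132) that did not pass the test. It passed without isoxaben replicate 3 (adjusted p = 0.0419) and with the fragments of the pair summed, where the log2 change was -0.57 (adjusted p = 0.0353). Its adjusted p over all alternatives was 0.0353 to 0.351. In this comparison 2 of the 4 AIR1-cluster genes were called lower, against 2.25% of all genes tested. All 4 had libraries with both treatments that lay below every PEP3 library, against 12.4%. The chromosome 5 pair, chosen for its fall with isoxaben, is left out of these counts.

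With PEP3 alone, AT4G12510 changed by -0.74 (SE 0.179, limma adjusted p = 0.0152) and AT4G12520 by -0.73 (SE 0.177, limma adjusted p = 0.0153) against DMSO. Both calls were lost in some fits without 1 library. Leaving out 1 library gave log2 changes of -0.83 to -0.62 for AT4G12510 and -0.88 to -0.61 for AT4G12520. Of all genes tested, 2894 were called in the main fit, and 1621 to 3065 without 1 library. AT4G12510 lost its call without PEP3 replicate 2 (adjusted p = 0.0712) or DMSO replicate 2 (0.0706), over a range of 0.00281 to 0.0712 in all alternatives. AT4G12520 lost it without PEP3 replicate 2 (0.0624), PEP3 replicate 3 (0.0652) or DMSO replicate 1 (0.0501), over a range of 0.00116 to 0.0652. Summed, the pair changed by -0.73 (SE 0.154, limma adjusted p = 0.00684).

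In isoxaben against DMSO, AT4G12510 averaged 6.85 ± 1.56 FPKM with isoxaben and 19.2 ± 2.97 FPKM with DMSO (SD, n = 3 each), with a log2 change of -1.37 (limma adjusted p = 5.11e-05). AT4G12520 averaged 12.6 ± 3.53 FPKM with isoxaben and 35.9 ± 0.379 FPKM with DMSO, with a log2 change of -1.48 (limma adjusted p = 2.47e-05). Both genes were listed with earlier results of these data known. Of the 4 AIR1-cluster genes, these 2, members of 1 close pair, were called lower here, where 15.2% of all genes tested were. The chromosome 5 pair, chosen on this contrast, is left out of the count. The interaction was 1.01 for AT4G12520 (SE 0.251, limma adjusted p = 0.0321) and 0.54 for AT4G12510 (SE 0.254, limma adjusted p = 0.246). With the fragments of the pair summed it was 0.87 (SE 0.218, limma adjusted p = 0.0332). The AT4G12520 call was lost in 9 of 24 alternatives, among them the fits without replicate 2 or 3 of both treatments, without PEP3 replicate 2 or 3, and without each of the 3 DMSO libraries (adjusted p over all alternatives 0.00850 to 0.0806). It was the 1 call among the 4 AIR1-cluster genes in the interaction, where 1.94% of all genes tested were called higher.

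**Figure D2:**
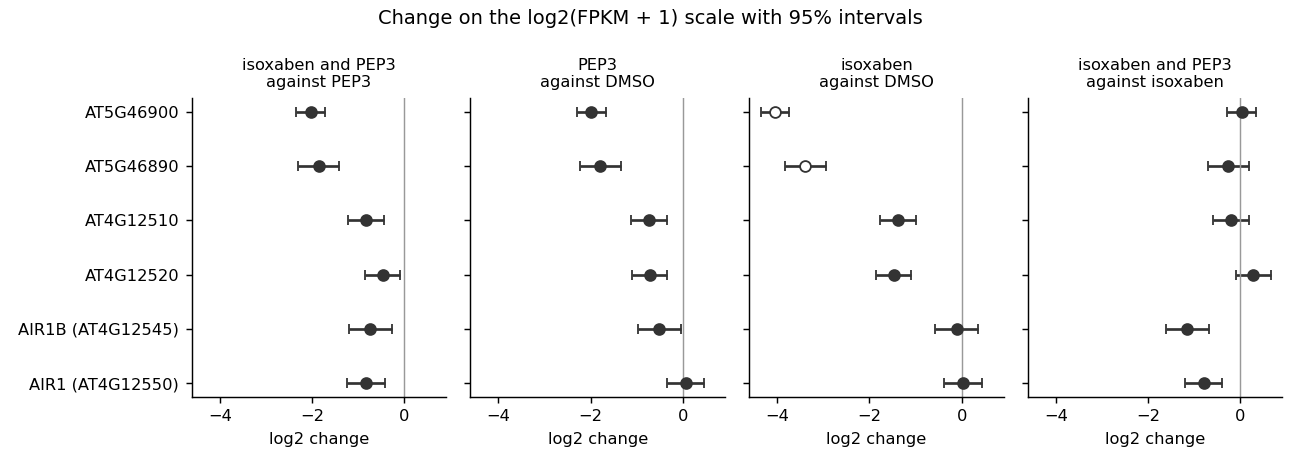
Log2 changes on the log2(FPKM + 1) scale with 95% intervals from limma for the 6 genes. The panels are both treatments against PEP3, PEP3 against DMSO, isoxaben against DMSO and both treatments against isoxaben. AT5G46900 and AT5G46890 lie lowest, at -2.03 and -1.85 in both treatments against PEP3, while AIR1 lies at 0.03 with isoxaben and at 0.06 with PEP3, each against DMSO.

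AIR1 and AIR1B showed another order of groups. AIR1 averaged 102% of its DMSO mean with isoxaben, 105% with PEP3 and 59.0% with both treatments. AIR1 stood at 31.3, 29.1 and 17.7 FPKM with both treatments, at 42.9, 42.0 and 49.5 FPKM with isoxaben, at 35.8, 52.9 and 50.2 FPKM with PEP3, and at 41.5, 39.3 and 51.6 FPKM with DMSO. The group with both treatments lay below every other library, and the other 3 groups overlapped each other. AIR1B stood at 7.93, 11.2 and 4.48 FPKM with both treatments, at 18.1, 14.9 and 20.5 FPKM with isoxaben, at 11.9, 13.0 and 14.4 FPKM with PEP3, and at 16.7, 20.5 and 20.3 FPKM with DMSO. Its libraries with both treatments were again below all others, and its isoxaben and DMSO libraries overlapped.

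Against isoxaben alone, both treatments lowered AIR1B and AIR1, 2 of the 4 AIR1-cluster genes, where 4.09% of all genes tested were called lower. These 2 are also 1 close pair. AIR1B averaged 7.89 ± 3.39 FPKM with both treatments and 17.8 ± 2.81 FPKM with isoxaben (SD, n = 3 each), 2.26-fold lower, with a log2 change of -1.15 (SE 0.217 and limma adjusted p = 0.00655). AIR1 averaged 26.0 ± 7.27 FPKM with both treatments and 44.8 ± 4.13 FPKM with isoxaben, 1.72-fold lower, with a log2 change of -0.80 (SE 0.189 and limma adjusted p = 0.0222). The AIR1 call was lost without replicate 3 of both treatments (adjusted p = 0.0659), isoxaben replicate 1 (0.0546) or isoxaben replicate 3 (0.0655), over a range of 0.00541 to 0.0659 in all alternatives. Summed, the pair changed by -0.88 (SE 0.186, limma adjusted p = 0.0121). The 2 genes were also the only ones of the 4 whose libraries did not overlap here, against 13% of all genes tested.

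Against PEP3, AIR1 averaged 26.0 ± 7.27 FPKM with both treatments and 46.3 ± 9.21 FPKM with PEP3 (SD, n = 3 each), 1.78-fold lower, with a log2 change of -0.83 (SE 0.189 and limma adjusted p = 0.0148). Without PEP3 replicate 2 or 3 the call was lost, at adjusted p = 0.0665 and 0.0621, the highest values of a range from 0.00349. AIR1B averaged 7.89 ± 3.39 FPKM with both treatments and 13.1 ± 1.23 FPKM with PEP3, with a log2 change of -0.74 (95% interval -1.21 to -0.27, limma adjusted p = 0.0539) that did not pass the test. It passed in 6 of 25 alternatives, with the lowest adjusted p, 0.00686, without replicate 2 of both treatments and the highest at 0.159, and the summed pair did at -0.80 (adjusted p = 0.0162).

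With 1 treatment alone, AIR1 changed by 0.03 with isoxaben (95% interval -0.38 to 0.44, limma adjusted p = 0.934) and by 0.06 with PEP3 (95% interval -0.35 to 0.47, limma adjusted p = 0.892), each against DMSO. AIR1B changed by -0.11 with isoxaben (95% interval -0.57 to 0.36, adjusted p = 0.756) and by -0.52 with PEP3 (95% interval -0.98 to -0.05, adjusted p = 0.141). The AIR1 interaction, -0.85 (95% interval -1.43 to -0.28, limma adjusted p = 0.0795), and the AIR1B interaction, -0.63 (95% interval -1.29 to 0.03, adjusted p = 0.263), did not pass the test. Neither did the interaction of the summed pair, -0.79 (SE 0.264, limma adjusted p = 0.0982). For AIR1 it passed with voom (-0.87, adjusted p = 0.0272) and without replicate 1 of both treatments (0.0464) or of PEP3 (0.0324), over a range of 0.0272 to 0.181. In both treatments against DMSO, the 4 AIR1-cluster genes were each called lower, where 14.4% of all genes tested were, with means of 30.7% of the DMSO level for AT4G12510, 42.4% for AT4G12520, 41.1% for AIR1B and 59.0% for AIR1. The means of AT5G46900 and AT5G46890, 1.12% and 4.82% of the DMSO level, use the DMSO libraries of their choice and are given with no test.

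On the opposite strand AIR1B is overlapped by AT4G12543 over 444 bases (67.3% of its length) and AIR1 by AT4G12555 over 642 bases (92.9%). Both antisense genes were listed at 0 in all 12 libraries. The use of strand in counting was not given in the sources used here. Reads from the 2 strands therefore cannot be told apart at these genes.

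Within the pairs the ratio of the 2 genes was compared as a description. AT5G46900 stood at 0.157 ± 0.0375 times the FPKM of AT5G46890 with both treatments, 0.1004 ± 0.0871 with isoxaben, 0.527 ± 0.0327 with PEP3 and 0.667 ± 0.146 with DMSO (SD, n = 3 each). The highest ratio with isoxaben present, 0.196, was below the lowest without it, 0.500. The ratios with isoxaben rest on 0 to 5 fragments of AT5G46900 a library, and the pair was chosen for its fall with isoxaben. AT4G12510 stood at 0.397 ± 0.143, 0.557 ± 0.101, 0.523 ± 0.0730 and 0.536 ± 0.0830 times AT4G12520 with both treatments, isoxaben, PEP3 and DMSO, ranges that overlapped. AIR1B stood at 0.298 ± 0.0774, 0.397 ± 0.0363, 0.288 ± 0.0444 and 0.439 ± 0.0712 times AIR1 in the same 4 groups, and the PEP3 libraries lay below those of isoxaben and of DMSO.

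**Figure D3:**
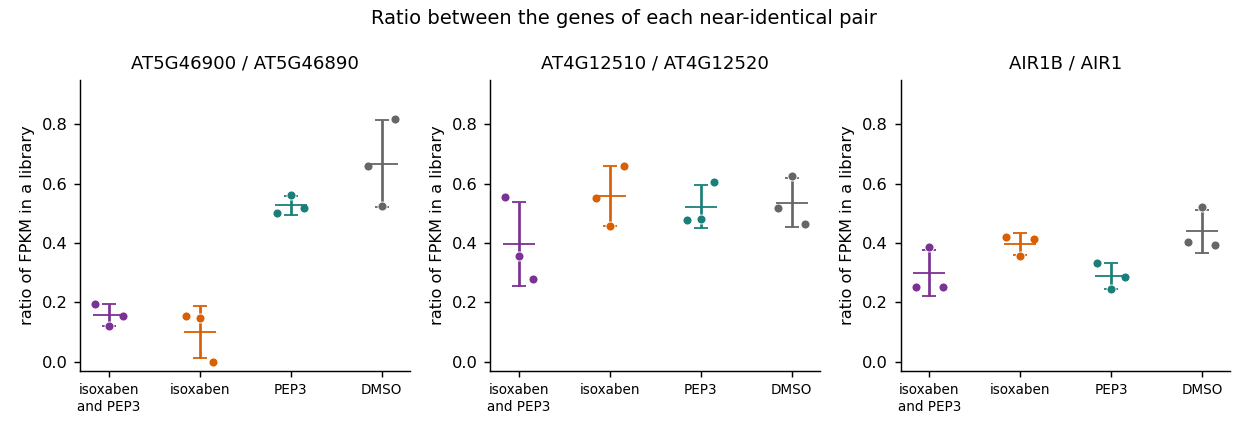
Ratio of FPKM within each pair in the 12 libraries (points are libraries, bars the mean with the SD, n = 3 a group). The AT5G46900 to AT5G46890 ratio lies between 0 and 0.196 in the isoxaben groups and between 0.500 and 0.818 in the groups without isoxaben. In the isoxaben groups it rests on 0 to 5 fragments of AT5G46900 a library.

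Over the 12 libraries, which share their depth and scaling, AT5G46890 and AT5G46900 correlated at 0.989 (Pearson, on log2(FPKM + 1)). AT4G12510 and AT4G12520 correlated with AT5G46900 at 0.947 and 0.940, and with each other at 0.891. AIR1B and AIR1 correlated at 0.850 with each other, and at 0.464 and 0.388 with AT5G46900.

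The chromosome 4 genes lie in a row of 14 genes over 39030 bases, from AZI1 to AT4G12555, of which 9 were tested and 4 were listed at 0 in all libraries. AZI1, EARLI1, AT4G12490 and AT4G12500, at one end of the row, are described for their position, after their values were seen, and their levels moved the other way with PEP3. AT4G12490 averaged 479 FPKM with both treatments, 94.9 with isoxaben, 594 with PEP3 and 46.2 with DMSO, and its log2 change with PEP3 alone was 3.66 (limma adjusted p = 2.88e-08). AT4G12500, the direct neighbour of AT4G12510, averaged 112 FPKM with both treatments, 17.7 with isoxaben, 149 with PEP3 and 11.5 with DMSO, and its log2 change with PEP3 alone was 3.58 (limma adjusted p = 9.42e-09). EARLI1 and AZI1 changed by 0.98 (adjusted p = 0.000234) and 0.93 (adjusted p = 0.000136) with PEP3 alone. With isoxaben alone the 4 genes changed by 0.38 to 1.03 and were each called higher, where AT4G12510 and AT4G12520 were called lower. Of all genes tested, 17.3% were called higher and 15.2% lower with isoxaben alone, and 7.84% were called higher with PEP3 alone.

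**Figure D4:**
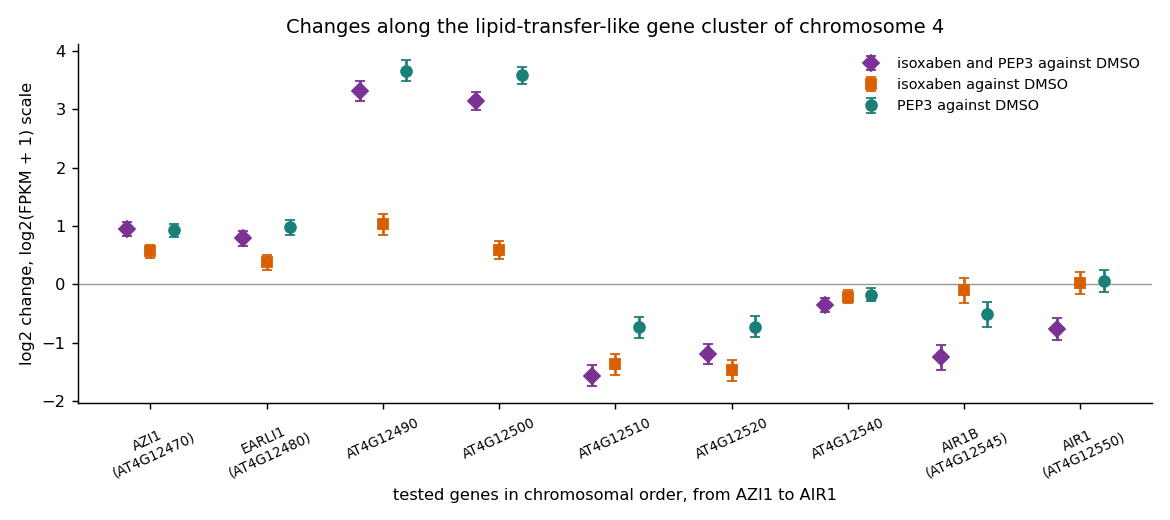
Log2 changes of the genes tested on chromosome 4, in their order from AZI1 to AIR1, with bars of 1 SE from limma. With PEP3 the first 4 genes lie at 0.93 to 3.66 and the next 2, AT4G12510 and AT4G12520, at -0.74 and -0.73, with AIR1 at 0.06 and AIR1B at -0.52.

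Related genes outside the 6 were counted from lists written with earlier results of these data known. Of 18 other genes with the 8-cysteine motif, 14 were tested. Against PEP3, both treatments lowered 2 of them by the test, with a list median of -0.19: ELP (AT1G12090, an extensin-like protein gene), at -0.39 (limma adjusted p = 0.00332), and AT2G45180, at -0.30 (limma adjusted p = 0.0448). Of all genes tested, 2.25% were called lower there. With PEP3 against DMSO, 3 of the 14 were called lower and 5 higher (median 0.06), where 6.45% of all genes tested were called lower and 7.84% higher. With isoxaben against DMSO 3 were called lower and 6 higher (median 0.09), where 15.2% of all genes tested were called lower and 17.3% higher. The genes called higher, with PEP3 and with isoxaben, include AZI1, EARLI1, AT4G12490 and AT4G12500 of the chromosome 4 row described above. The list is therefore not a separate set from those genes.

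Of 9 nonspecific lipid transfer protein genes, 8 were tested and DIR1, a gene of systemic resistance, was listed at 0. Between both treatments and PEP3, 0 of the 8 were called by limma (median -0.17), 2 had an unadjusted p under 0.05, and voom called 0. With PEP3 against DMSO 1 was called higher (median -0.05), where 7.84% of all genes tested were. With isoxaben against DMSO 4 were called lower (median -0.31), where 15.2% of all genes tested were.

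Of the 3 other genes first named as auxin-induced in root cultures, AIR12, which codes for a membrane-bound cytochrome, averaged 55.8 FPKM with both treatments and 32.8 FPKM with PEP3, at a log2 change of 0.74 (limma adjusted p = 0.0122). AIR3 and AIR9 were not called there. Of 21 auxin response and lateral root genes, 15 were tested, and 2 were called lower and 1 higher (median -0.05), where 2.25% of all genes tested were called lower and 6.02% higher. EXPA17, an expansin gene of lateral root emergence, changed by -0.53 (limma adjusted p = 0.0299), and LAX3, an auxin influx carrier gene, by -0.35 (limma adjusted p = 0.0109). GH3.3, which codes for an auxin-conjugating enzyme, changed by 0.89 (limma adjusted p = 0.00113).

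Both root and shoot markers were present in the libraries. The 12 root markers summed to 140 to 156 FPKM with both treatments, 145 to 170 with isoxaben, 139 to 155 with PEP3 and 133 to 162 with DMSO, ranges that overlapped. In each of isoxaben against DMSO and PEP3 against DMSO, 0 of the 12 were called by limma or by voom and 0 had an unadjusted p under 0.05. In both treatments against PEP3, 0 were called by either tool and 2 had an unadjusted p under 0.05. In both treatments against isoxaben 1, PHO1, a phosphate exporter gene of the root stele, was called lower, where 4.09% of all genes tested were. In both treatments against DMSO 1, GL2, was called lower (-0.34, limma adjusted p = 0.0459), where 14.4% of all genes tested were. There 3 of the 12 had an unadjusted p under 0.05, and voom called 2 lower and 1 higher. The 7 shoot markers, genes of photosynthesis, summed to 19794 to 20871 FPKM with both treatments, 18410 to 19818 with isoxaben, 20087 to 23108 with PEP3 and 23058 to 24757 with DMSO. With isoxaben against DMSO 6 of the 7 were called lower (median -0.81), where 15.2% of all genes tested were, and with PEP3 against DMSO 3 were, where 6.45% of all genes tested were. The part of tissue makeup in the results for the 6 genes was not tested.

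The genes whose levels followed AT5G46900 most closely over the 12 libraries, as a description, were CYP96A12 (a cytochrome P450 gene, Pearson correlation 0.992), DPE2 (a glucanotransferase of maltose metabolism, 0.985), MYB48 (a transcription factor gene, 0.981), CSLB5 (a cellulose synthase-like gene, 0.980) and BGAL2 (a beta-galactosidase gene, 0.980). Their ranges were narrower than that of AT5G46900. DPE2 averaged 30.3 ± 1.15 FPKM with both treatments, 30.2 ± 0.237 with isoxaben, 36.9 ± 1.05 with PEP3 and 51.5 ± 1.11 with DMSO (SD, n = 3 each). MYB48 averaged 4.98 ± 0.622, 4.86 ± 0.504, 7.69 ± 0.285 and 12.5 ± 0.848 FPKM in the same groups. CSLB5 came nearest in proportion, with 0.103 ± 0.0580, 0.122 ± 0.0552, 0.758 ± 0.274 and 1.64 ± 0.327 FPKM. By rank correlation 0 of these 5 stayed among the 5 closest.

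The genes closest to AIR1 were AT1G80170 (a probable polygalacturonase gene, 0.913), AT5G35995 (0.895), PYL4 (an abscisic acid receptor gene, 0.882), ELF5A-2 (a translation factor gene, 0.866) and AT2G05185 (0.866), and 2 of these 5 stayed among the 5 closest by rank correlation. AT1G80170 averaged 3.74 ± 0.373 FPKM with both treatments, 4.59 ± 0.425 with isoxaben, 4.83 ± 0.157 with PEP3 and 4.66 ± 0.489 with DMSO (SD, n = 3 each). In both treatments against PEP3 it changed by -0.30 (limma adjusted p = 0.0906), which did not pass the test.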

How the data were processed

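The values, deposited by the authors as 1 table, are FPKM of 32833 genes, and the submitters' processing notes name HISAT2 2.0.5 and the build TAIR10. Counting program, annotation and use of strand: not given in the sources used here. Fragments were recovered from the deposited FPKM, since each value times the gene's length was whole in units of a library's smallest step (100% of values, tolerance 0.01 fragments).

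Because FPKM are not counts, limma 3.58.1 in R 4.3.3 (lmFit, eBayes with a trend) was fitted on log2(FPKM + 1) of 12 libraries, with a mean for each treatment and 8 residual degrees of freedom. The filter, a mean FPKM of 0.5 or more, kept 20248 genes and left out 12585. Each comparison had its own Benjamini-Hochberg adjustment. Over all genes tested, same-numbered libraries correlated at -0.11 to 0.103 in their deviations from the group means. The main fit therefore used no pairing.

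The members and lists were chosen with earlier results of these data known. Named genes were the members, the 5 most like AT5G46900 and AIR1, and up to 3 called genes of each list at either end of the changes in both treatments against PEP3. Sequences were read from RefSeq TAIR10.1 and aligned with Biopython 1.88, and whole genes with BLAST 2.17.0. Overlaps of genes were taken from the deposited positions. These positions were checked against the RefSeq annotation, which gave 99.95% of 32548 matched genes the deposited start and end. Scripts were tested on simulated data, where 4.44% to 9.85% of calls at adjusted p under 0.05 were false, depending on the comparison. Simulated log2 changes of 1 were recovered for 74% to 85% of genes in the comparisons between groups. In the interaction 32% were recovered, so an interaction of that size can be missed. Alternatives were other pseudocounts, filters and scalings, voom, fits of the compared libraries only, a replicate block, summed pairs and leaving out each library.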

Additional observations from a re-analysis of the deposited data

Results flagged for a closer look

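The change of AT4G12520 with PEP3 was set against its change with PEP3 in the presence of isoxaben, and the interaction passed the test. It was 1.01 on the log2 scale (SE 0.251, limma adjusted p = 0.0321). For AT4G12510, the other member of the pair, it was 0.54 (adjusted p = 0.246), and for the summed pair 0.87 (adjusted p = 0.0332). With isoxaben present, AT4G12520 changed by 0.28 with PEP3 (adjusted p = 0.395), in both treatments against isoxaben, where the libraries overlapped. Without isoxaben it changed by -0.73 (adjusted p = 0.0153), lower in 3 of 3 PEP3 libraries than in every DMSO library. The AT4G12520 interaction lost its call in 9 of 24 alternatives, among them the fits without DMSO replicate 1, 2 or 3 (adjusted p = 0.0719, 0.0691 and 0.0523, over a range of 0.00850 to 0.0806). The change with PEP3 alone lost its call without PEP3 replicate 2 (0.0624), PEP3 replicate 3 (0.0652) or DMSO replicate 1 (0.0501), over a range of 0.00116 to 0.0652.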

How the results depend on the processing

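In both treatments against PEP3, AT5G46890, AT5G46900 and AT4G12510 were called under every alternative run, with log2 changes of -2.43 to -1.66, -4.04 to -1.88 and -0.98 to -0.57. The adjusted p of AT4G12510 ranged from 0.00387 to 0.0495, the highest without PEP3 replicate 1, close to the threshold. Leaving out each library in turn gave -2.05 to -1.66 for AT5G46890, -2.15 to -1.88 for AT5G46900, -0.98 to -0.63 for AT4G12510, -0.58 to -0.32 for AT4G12520, -1.01 to -0.43 for AIR1B and -0.998 to -0.58 for AIR1. AT4G12520 became called when summed with AT4G12510 (-0.57, adjusted p = 0.0353) and without isoxaben replicate 3 (-0.47, 0.0419). AIR1B became called at a mean of at least 2 FPKM (-0.74, adjusted p = 0.0463), with TPM (-0.80, 0.0486), quantile scaling (-0.76, 0.0460), voom (-0.80, 0.0430), summed with AIR1 (-0.80, 0.0162) and without replicate 2 of both treatments (-1.01, 0.00686). AIR1 lost its call without PEP3 replicate 2 or 3 (-0.72 and -0.76).

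The number of genes called in both treatments against PEP3 was 1673, and 1011 to 1920 without 1 library, the lowest without replicate 2 of both treatments. For PEP3 against DMSO it was 2894, and 1621 to 3065 without 1 library (1642 without PEP3 replicate 2, 1621 and 1895 without DMSO replicates 1 and 2). For isoxaben against DMSO it was 6577 (5258 to 6605), and for both treatments against DMSO 6355 (4873 to 6483). For both treatments against isoxaben it was 1501, 931 with only the libraries compared, and 881 to 1483 without 1 library (944 and 894 without replicates 2 and 3 of both treatments, 881 without isoxaben replicate 1). The interaction had 1263 calls, and 662 to 1500 without 1 library (739 without replicate 3 of both treatments, 795 without the second isoxaben library, 683 without the second PEP3 library, 662 and 743 without DMSO replicates 1 and 2). The cause of these shifts was not tested.

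Signs turned only for values that did not pass the test or were given with no test. AIR1 in PEP3 against DMSO (up to 0.23 without 1 library) stood at -0.0465 and -0.00983 without PEP3 replicates 2 and 3, -0.0188 without DMSO replicate 2 and -0.0920 summed with AIR1B. AIR1 in isoxaben against DMSO (up to 0.14) stood at -0.0386 with quantile scaling, -0.0453 without isoxaben replicate 3, -0.0112 and -0.0488 without DMSO replicates 1 and 2 and -0.0126 summed. AIR1B there stood at 0.0111 without isoxaben replicate 2 (down to -0.21). In both treatments against isoxaben, AT5G46900 stood at -0.0888 without isoxaben replicate 3 (up to 0.0979) and -0.150 summed, and AT4G12510 at 0.00475 without replicate 3 of both treatments (down to -0.34) and 0.138 summed.

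In isoxaben against DMSO, where no test was given, AT5G46900 ranged from -6.82 (voom) to -3.65 (summed). AIR1B in PEP3 against DMSO became called with only the libraries compared (adjusted p = 0.00959) and without replicate 3 of both treatments (0.0272).

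With the replicate number as a block, 1622 genes were called in both treatments against PEP3 and 2751 in PEP3 against DMSO, and the members' calls in both treatments against PEP3 did not change (AIR1 adjusted p = 0.0275, AIR1B 0.0735). Over all genes tested, 1 of 18 same-numbered pairs correlated over 0.1. By the same measure, 5 of 12 libraries correlated best with their own number. A pairing limited to some genes was not tested. Depth limits AT5G46900 under isoxaben, at 9 fragments over 3 libraries.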
